A study of Homo sapiens with 35 samples.

Results

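The question asked of the arrays at 72 h was where all-trans retinoic acid (ATRA) and valproic acid (VPA), given together to BE(2)-C neuroblastoma cells, moved a gene by more or by less than the changes with each agent alone add up to. The members were all 11 arrays titled 72hr of the 35 in the series. They form a 2 by 2 layout of vehicle or ATRA by vehicle or VPA: 2 arrays of cells given the vehicle DMSO, 3 with 5 uM ATRA, 3 with 1 mM VPA, and 3 with both agents at those doses. All cells were of the one line BE(2)-C, an established human neuroblastoma line that carries extra copies of MYCN, kept in DMEM with serum. The whole series holds 12 groups, made of the same 4 treatments at 6, 24 and 72 h, and was made to derive a screening signature of differentiation. The labels speak of triplicate treatment and say nothing of separate cultures, so each p-value measures only the spread between these samples, which may be technical.

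Retinoic acid enters the nucleus on carrier proteins such as CRABP2, binds heterodimers of a retinoic acid receptor and a retinoid X receptor on DNA, and turns co-repressor complexes that hold histone deacetylases into co-activator complexes. Neuroblastoma cells given ATRA extend neurites and leave the cell cycle. Valproic acid inhibits histone deacetylases, enzymes that take acetyl groups off histones and other proteins, which is one reason the pair is studied together.

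A pair of direct retinoid targets shows the element through which the receptors are known to act, and is printed because 1 of them, RARB, had an interaction past the threshold and the other, CYP26A1, did not. Each sequence is the 250 bases before a transcription start, from RefSeq on GRCh38.p14, in lower case with the motif in capitals. The motif is the direct repeat called DR5, searched on both strands as GTTCA, then 6 bases of any kind, then GTTCA. RARB encodes retinoic acid receptor beta, and the window chr3:25428013-25428262 on the plus strand holds the repeat 52 to 37 bases before the start, in 1 of the 4 RARB windows of the table. CYP26A1 encodes an enzyme that breaks retinoic acid down, and the window chr10:93073643-93073892 on the plus strand holds the repeat on the minus strand, 90 to 75 bases before the start, in 1 of 2 windows.
RARB: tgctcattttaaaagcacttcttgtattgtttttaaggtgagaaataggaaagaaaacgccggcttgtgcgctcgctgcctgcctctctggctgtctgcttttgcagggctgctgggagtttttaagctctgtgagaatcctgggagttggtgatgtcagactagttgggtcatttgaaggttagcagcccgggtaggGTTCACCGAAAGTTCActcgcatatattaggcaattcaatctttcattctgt
CYP26A1: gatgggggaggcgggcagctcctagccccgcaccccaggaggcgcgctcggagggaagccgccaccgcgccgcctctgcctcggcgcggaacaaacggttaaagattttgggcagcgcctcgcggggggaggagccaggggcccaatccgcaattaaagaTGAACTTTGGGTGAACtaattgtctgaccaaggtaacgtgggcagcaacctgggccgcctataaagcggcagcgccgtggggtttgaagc
Of 35116 promoter windows in the table, 20 (0.057%) held this repeat. Each was searched over its whole length, a search not limited to the 250 bases printed. The third promoter shown is that of SMAD6, an inhibitor of bone morphogenetic protein (BMP) signalling, because it was among the called readouts of this and related pathways. Its window chr15:66701986-66702235 on the plus strand holds the SMAD box GTCTAGAC, which reads the same on both strands, 12 to 5 bases before the start.
SMAD6: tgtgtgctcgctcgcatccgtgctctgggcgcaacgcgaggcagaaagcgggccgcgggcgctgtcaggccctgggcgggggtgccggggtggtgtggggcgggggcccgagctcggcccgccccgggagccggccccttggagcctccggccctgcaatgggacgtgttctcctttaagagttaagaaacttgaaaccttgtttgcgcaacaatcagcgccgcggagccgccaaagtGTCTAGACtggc
In the same search the box stood in 71 of the 35116 windows (0.202%). Of the 229 genes called below, 169 had a promoter in the table, and 1 of them held the repeat and 1 held the box. A match is a description of these letters and not a site of binding.

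Values were intensities on a linear scale, one per probe set, normalized by the authors with RMA, and each gene was read from its brightest probe set. The median intensity of an array at 72 h lay between 53.15 and 56.82 and the lower quartile between 21.45 and 23.63, with no detection calls, so a mean near 22 is not shown to be above background. A measure of RNA integrity and labelling was not even across the groups. The log2 ratio of 3' to 5' control probe sets was 1.06 ± 0.168 (SD, n = 2) in the DMSO group, 1.82 ± 0.173 (SD, n = 3) in ATRA, 1.09 ± 0.161 (SD, n = 3) in VPA and 1.36 ± 0.071 (SD, n = 3) in the combination. The ATRA arrays, at 1.64 to 1.985, lay above all others, at 0.912 to 1.444, and the same 2 by 2 difference taken on this ratio was -0.490. The upper quartile of intensity was also lower on the ATRA arrays (289.7 to 318.9) than on the others (321.1 to 343.9). The part of either in the results below was not tested, apart from fits that hold the ratio as a covariate.

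For each gene the interaction was the log2 intensity with the combination, minus that with ATRA, minus that with VPA, plus that with DMSO. A positive value means that the combination lay above the sum of both single-agent changes, and a negative value that it lay below. All 12 groups were fitted together with limma over 11940 genes, and a gene was called where its p-value, adjusted by Benjamini-Hochberg over all of them, was under 0.05. By this test 229 genes were called, 1.92% of those tested, of which 156 (1.31%) had a positive and 73 (0.611%) a negative interaction. The change was at least 2-fold for 50 of them, 33 positive and 17 negative, and at an unadjusted p under 0.05 there were 2055 genes. Much larger shares were called for each treatment against DMSO, namely 30.9% for ATRA, 6.67% for VPA and 31.5% for the combination. These shares are not at like precision. The median SE was 0.177 for the interaction and 0.132 for each treatment against DMSO. The smallest called term was 0.362 for the interaction, against 0.166 (ATRA), 0.222 (VPA) and 0.174 (combination). The median interaction over all genes was 0.030, and over the 7960 genes with the higher means it was 0.118. A further quantile normalization brought these medians to -0.0048 and 0.0075 and turned the split of calls from 156 against 73 into 116 against 114.

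**Figure D1:**
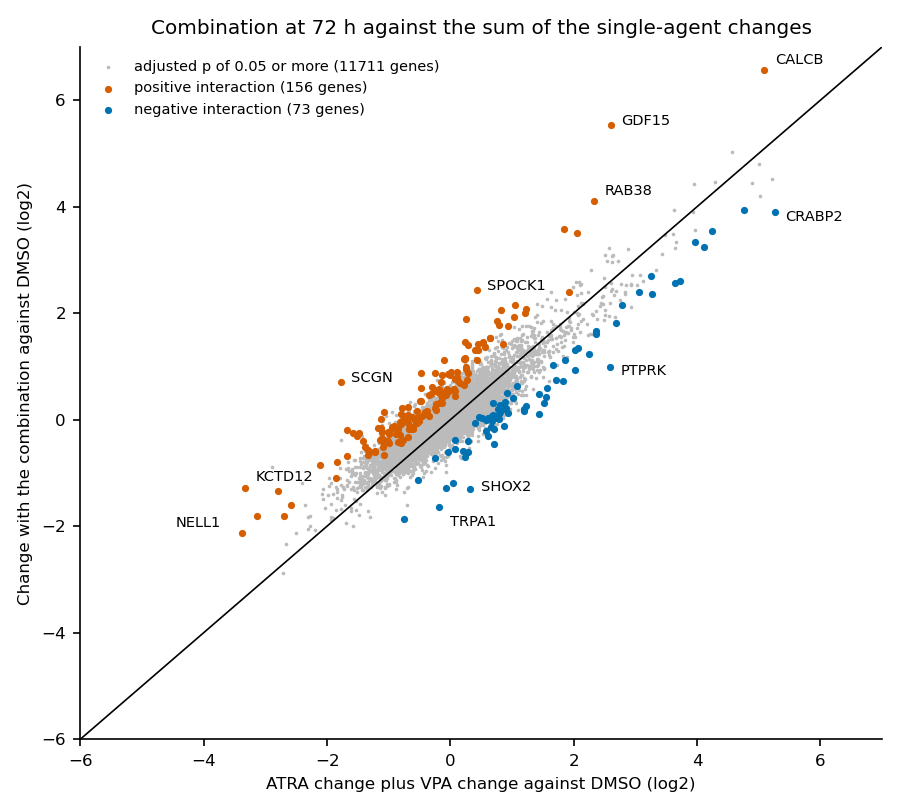
Each point is one of 11940 genes at 72 h, with the sum of the ATRA and VPA changes against DMSO on the x axis and the change with the combination against DMSO on the y axis, both in log2 units; the line marks equality. Orange points are the 156 genes with a positive and blue points the 73 with a negative interaction past the threshold. GDF15, SCGN and KCTD12 lie farthest above the line, and SHOX2, PTPRK and TRPA1 farthest below it.

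The number of calls moved with single arrays. It was 97 without DMSO replicate 1, 95 without DMSO replicate 2, 147 without VPA replicate 2, 144 without combination replicate 3 and 366 without ATRA replicate 3. It rose to 482 without DMSO replicate 1 of the 24 h group, which enters the interaction at 72 h only through the spread that all groups share. The count of 796 for VPA against DMSO was 390 without DMSO replicate 1 and 317 without DMSO replicate 2, and the count of 3690 for ATRA against DMSO was 2409 without DMSO replicate 2. When this 3'/5' ratio entered the fit as a covariate, 180 genes were called, and in a fit of the 11 arrays alone with that covariate, chosen after seeing the data, 21 were. In the latter fit 285 genes were called for ATRA against DMSO, 650 for VPA and 2623 for the combination. Each of the 229 genes kept its sign in all of these fits of the interaction. With the mean of probe sets in place of the brightest, 227 of the 229 did. There were 16 genes called under every one of 22 alternatives: GDF15, SCGN, KCTD12, SPOCK1, CYP1A1, RPH3A, LGALS3, FHL2, SSTR2 and CUX2 with a positive interaction, and SHOX2, PTPRK, TRPA1, CRABP2, SLC6A15 and HEY1 with a negative one. CUX2, a homeobox gene of neurons, and HEY1, a Notch target, were named after their values were seen. Among the other called genes that the naming rule took up, the 11-array fit with the covariate ended the call in all but RARB. Without the covariate, the fit of the 11 arrays called 195 genes and ended the call for NELL1, ITGA8, FGFR2, LMO2, HTR1E, SCG2, GAP43, SNAP25, BDNF, CXADR, KLF2, SLC7A5 and PTPRC. With the covariate in the fit of all groups, FGFR2, SCG2, SNAP25, FN1, CXADR, KLF2, SLC7A5 and PTPRC missed the threshold, and after the further quantile normalization SCG2, SNAP25, SLC7A5 and PTPRC did.

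Among the positive interactions 2 shapes were frequent. In 69 of the 156 genes (44.2%) all 3 combination arrays lay above the other 8 arrays, against 8.52% of all genes. In 62 (39.7%) all ATRA arrays lay below the others, against 8.56% of all genes. Both DMSO arrays lay above the others in 41 of the 156 (26.3%, against 12.7% of all genes), and a gene can show more than 1 shape. Among the negative interactions DMSO or one single agent often lay at the edge. DMSO lay below all other arrays in 31 of 73 genes (42.5%, against 6.87% of all genes), ATRA lay above them in 24 (32.9%, against 3.53%) and VPA in 20 (27.4%, against 3.40%). In 11 of the 73 (15.1%, against 4.02%) the combination lay below every other array, and in 11 (15.1%, against 8.52%) it lay above every other array. These shares describe genes picked by the same values and carry no test. The sign of the interaction differed between the log2 and the linear scale for few called genes. In linear intensity the sign was opposite for 1 of the 156 positive calls, SFRP1, and for 5 of the 73 negative calls, FN1, DKK1, IL13RA2, GSDME and ARHGEF40, named after their values were seen. The size relative to the level also varied on the linear scale. The linear difference was -78.7 for CRABP2, -102.3 for EGR1 and -6.76 for CXADR, beside combination means of 4267, 1633 and 435. It was -630.1 for SHOX2 and -1449 for TFAP2B, beside combination means of 279 and 1977.

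GDF15, a stress-induced cytokine of the TGF-beta superfamily, had the largest positive interaction. Its intensity was 26.2 and 25.8 with DMSO, 154, 226 and 149 with ATRA, 22.8, 25.5 and 24.9 with VPA, and 1080.2, 1193 and 1494 with both agents. Every ATRA array lay above the DMSO and VPA arrays, which were near background with VPA the lower, and every combination array lay above ATRA. The interaction was 2.93 ± 0.21 (SE, adjusted p = 2.72e-10), made of log2 changes against DMSO of 2.69 (ATRA), -0.089 (VPA) and 5.53 (combination). A further GDF15 probe set gave 0.088, so that the mean over both was 1.51 (adjusted p = 1.03e-07). That further probe set was dim, at a mean log2 intensity of 4.05 against 5.925 for the one used.

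SCGN encodes secretagogin, a calcium-binding protein of neuroendocrine cells, and it crossed from lower with either agent to higher with both. Its intensity was 545 and 557 with DMSO, 311, 326 and 346 with ATRA, 262, 299 and 250.4 with VPA, and 899.8, 862 and 954 with both agents. Neither the ATRA nor the VPA arrays overlapped DMSO, from which both were lower, and the combination arrays were the highest of all. The interaction was 2.49 ± 0.16 (SE, adjusted p = 3.23e-11), with changes of -0.75 (ATRA), -1.03 (VPA) and 0.71 (combination), each past the threshold.

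CALCB, the gene of the neuropeptide beta-CGRP, had the largest rise of all named genes with the combination. Its intensity was 21.9 and 26.8 with DMSO, 666, 614 and 614 with ATRA, 29.5, 30.6 and 41.5 with VPA, and 2379, 2087 and 2744 with both agents. ATRA raised it far above DMSO and the combination arrays lay above ATRA without overlap, while the VPA change was 0.45 from near background. The interaction was 1.47 ± 0.16 (SE, adjusted p = 2e-06).

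Other genes stood near background in DMSO and were brightest with the combination. SPOCK1, which encodes the secreted proteoglycan testican-1, had intensities of 20.6 and 23.0 with DMSO, 28.8, 37.5 and 25.3 with ATRA, 23.7, 20.6 and 20.1 with VPA, and 109.9, 126 and 132 with both agents. The interaction was 2.01 ± 0.28 (SE, adjusted p = 4.97e-05), and it was 1.32 with a pseudocount of 32, with 3 of the 4 groups near background. CYP1A1, a xenobiotic-metabolising enzyme induced through the aryl hydrocarbon receptor, had intensities of 31.6 and 28.0 with DMSO, 47.5, 34.6 and 33.5 with ATRA, 31.8, 24.0 and 28.0 with VPA, and 125, 103 and 114 with both agents, and its interaction was 1.65 ± 0.20 (SE, adjusted p = 8.26e-06), or 1.10 with that pseudocount. In both genes the combination arrays lay above all others, and neither single agent differed from DMSO past the threshold. RAB38, a small GTPase of lysosome-related organelles, had mean intensities of 19.8, 94.1, 23.7 and 359 in DMSO, ATRA, VPA and the combination, and an interaction of 1.77 (adjusted p = 0.000349). PTGIR, the prostacyclin receptor, had means of 30.3, 96.9, 35.3 and 367 in the same order and an interaction of 1.73 (adjusted p = 0.00109). GPNMB, a lysosomal and melanosomal glycoprotein, had means of 19.3, 59.4, 28.5 and 232 and an interaction of 1.45 (adjusted p = 0.000696). In these 3 genes ATRA alone raised the level and the combination lay higher still.

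LGALS3, the gene of galectin-3, differed from these in its well measured baseline. Its intensity was 436 and 411 with DMSO, 322, 348 and 378 with ATRA, 348, 331 and 428 with VPA, and 780.2, 787 and 768 with both agents. The VPA arrays overlapped both DMSO and ATRA, and the combination arrays stood above all of them, with an interaction of 1.36 ± 0.21 (SE, adjusted p = 0.000178). SSTR2, a somatostatin receptor, also had its combination arrays above all others, with intensities of 99.0 and 85.0 with DMSO, 132, 98.7 and 116 with ATRA, 82.8, 80.7 and 98.6 with VPA, and 222, 280.2 and 259 with both agents, and an interaction of 1.21 ± 0.20 (SE, adjusted p = 0.000467). KRT18, a keratin of simple epithelia, had mean intensities of 32.7, 42.6, 43.6 and 115 in DMSO, ATRA, VPA and the combination and an interaction of 1.00 (adjusted p = 0.006), which missed the threshold without DMSO replicate 1 (0.81, adjusted p = 0.109).

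**Figure D2:**
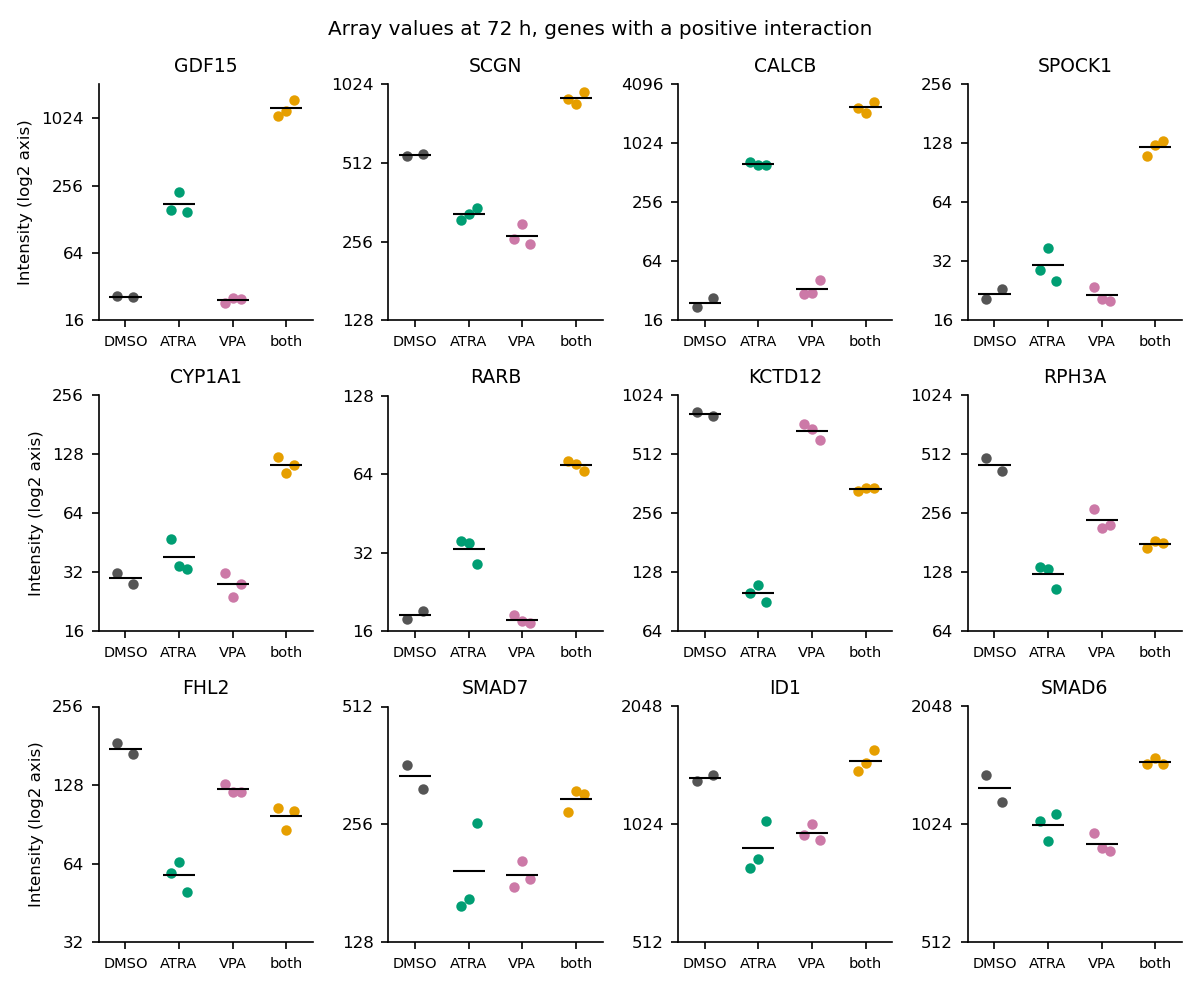
Points are single arrays at 72 h (DMSO 2, the others 3 each) and bars are group means of intensity, on a log2 axis of intensity that differs between panels; "both" is the combination. In GDF15, SCGN, CALCB, SPOCK1, CYP1A1 and RARB the combination arrays lie above all others, and in KCTD12, RPH3A and FHL2 the ATRA arrays lie below all others.

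Another set of genes had their lowest level with ATRA alone, and the combination lay between ATRA and DMSO. KCTD12, an auxiliary subunit of GABA-B receptors, had intensities of 843 and 809 with DMSO, 100.3, 110.5 and 90.3 with ATRA, 729.7, 690.4 and 609 with VPA, and 332, 345 and 344 with both agents. No pair of groups overlapped, in the order ATRA, combination, VPA, DMSO. Its log2 change was -3.03 with ATRA and -1.28 with the combination, which left an interaction of 2.05 ± 0.15 (SE, adjusted p = 2.91e-10). Its other probe set gave 1.16. RPH3A encodes rabphilin, a RAB3 effector on synaptic vesicles, with intensities of 489 and 419.5 with DMSO, 136, 133 and 105 with ATRA, 269, 215 and 225 with VPA, and 169.7, 186 and 181 with both agents. Both agents lowered it, the combination arrays lay between the ATRA and the VPA arrays, and the interaction was 1.46 ± 0.19 (SE, adjusted p = 1.45e-05). FHL2, a LIM-domain cofactor, had intensities of 185 and 168 with DMSO, 59.2, 64.8 and 50.01 with ATRA, 129, 120.3 and 121 with VPA, and 104, 86.1 and 102 with both agents and the same order, with an interaction of 1.26 ± 0.19 (SE, adjusted p = 0.000156). The combination was above ATRA alone by 1.76 (adjusted p = 2.86e-13) for KCTD12, by 0.52 (adjusted p = 0.0034) for RPH3A and by 0.74 (adjusted p = 8.31e-05) for FHL2.

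LOXL1 and NELL1 were also low with ATRA. LOXL1, which encodes an enzyme that cross-links elastin, had mean intensities of 95.6, 38.6, 109 and 96.4 in DMSO, ATRA, VPA and the combination. Its interaction was 1.14 (adjusted p = 0.0147), or 0.73 with a pseudocount of 32, and missed the threshold without DMSO replicate 2 or VPA replicate 1 (0.96 to 1.02, adjusted p = 0.0553 to 0.136). NELL1, a secreted protein, had means of 108, 24.9, 45.6 and 24.1 and an interaction of 1.25 (adjusted p = 0.00519), with its ATRA and combination arrays near background.

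Of 36 measured readouts of the BMP, TGF-beta, Notch and Wnt pathways, 6 had a positive and 2 a negative interaction and 28 did not pass, beside the 1.31% and 0.611% of all genes. Among those that did not pass were ID2 at 0.41 (adjusted p = 0.295), ID4 at 0.13 (adjusted p = 0.739) and the ligand BMP4 at -0.48 (adjusted p = 0.201). For SMAD7, ID1, ID3 and SMAD6 the mean with each agent alone was below that of DMSO, and the combination lay above both single agents. The median of the 36 was -0.061, against 0.030 over all genes. SMAD7, which blocks TGF-beta and BMP receptors, had intensities of 364 and 315 with DMSO, 159, 165 and 259 with ATRA, 177, 207 and 186 with VPA, and 275, 311 and 306 with both agents. The ATRA and VPA arrays lay below the DMSO arrays, and the combination arrays lay above the ATRA and VPA arrays and below both DMSO arrays. The interaction was 1.48 ± 0.21 (SE, adjusted p = 5.69e-05), made of changes of -0.84 (ATRA), -0.83 (VPA) and -0.19 (combination). ID1, a BMP-induced inhibitor of basic helix-loop-helix factors, had intensities of 1321 and 1370.0 with DMSO, 792, 834 and 1043 with ATRA, 961, 1028 and 932 with VPA, and 1400.0, 1465 and 1586 with both agents. The combination arrays were the highest and the interaction was 1.21 ± 0.26 (SE, adjusted p = 0.00824), which missed the threshold without DMSO replicate 2 (1.19, adjusted p = 0.0584).

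SMAD6, whose promoter is printed above, had intensities of 1371 and 1169 with DMSO, 1048, 929.6 and 1089 with ATRA, 973, 889.7 and 878 with VPA, and 1463, 1509 and 1465 with both agents. The combination arrays again lay above all others, and the interaction was 1.01 ± 0.14 (SE, adjusted p = 2.51e-05). Its 4 probe sets did not share a sign, with 2 positive, and their mean gave 0.29 (adjusted p = 0.22). The mean log2 intensity was 10.28 for the probe set used and 4.32 to 5.04 for the others. ID3, the partner of ID1, had an interaction of 0.76 (adjusted p = 0.00151), and BAMBI, a decoy BMP receptor, of 0.38 (adjusted p = 0.0493). SFRP1, a secreted Wnt inhibitor, had 0.67 (adjusted p = 0.00176), with changes of -1.77 (ATRA), 0.44 (VPA) and -0.66 (combination). The negative members were HEY1, at -0.97 (adjusted p = 0.00114) and changes of 1.32 (ATRA), 0.24 (VPA) and 0.59 (combination), and the Wnt inhibitor DKK1, at -0.87 (adjusted p = 0.00109) and changes of 2.13 (ATRA), 1.99 (VPA) and 3.25 (combination). DKK1 rose with each agent, and its linear intensity with the combination, a mean of 4304, lay above the linear sum by 970.1.

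The largest negative interactions fell into 3 shapes. The first was a rise with each agent alone, where the log2 change with the combination stayed below the sum of both log2 changes. CRABP2, the carrier that hands retinoic acid to its receptor, had intensities of 277 and 294 with DMSO, 3473, 3942 and 3978 with ATRA, 813, 788 and 901 with VPA, and 4025, 4457 and 4319 with both agents. All treated arrays lay above DMSO, and the combination, though its 3 arrays were the highest, was above ATRA by 0.17 (adjusted p = 0.515). The interaction was -1.37 ± 0.25 (SE, adjusted p = 0.00186), against changes of 3.73 (ATRA), 1.54 (VPA) and 3.90 (combination). EGR1, an immediate early transcription factor, had intensities of 255 and 282 with DMSO, 1239, 966 and 1320.4 with ATRA, 989, 751 and 744 with VPA, and 1779.7, 1416 and 1703 with both agents. All combination arrays lay above those of either agent. The log2 change of 2.60 with the combination was below the sum of 2.12 (ATRA) and 1.61 (VPA). The interaction of EGR1 was -1.13 ± 0.20 (SE, adjusted p = 0.00109). SLC6A15, a neutral amino acid transporter of neurons, had intensities of 95.7 and 93.2 with DMSO, 493, 624 and 685 with ATRA, 181, 221 and 173 with VPA, and 616, 497 and 591 with both agents. Its ATRA and combination arrays overlapped and its interaction was -1.08 ± 0.18 (SE, adjusted p = 0.00075).

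DUSP6, the phosphatase that switches off ERK, had intensities of 112 and 97.3 with DMSO, 1796, 2034 and 2227 with ATRA, 139.9, 144 and 164 with VPA, and 1595, 1616 and 1649 with both agents, with ATRA above the combination and no overlap. The interaction was -0.82 ± 0.19 (SE, adjusted p = 0.0154), which missed the threshold without DMSO replicate 2 (-0.72, adjusted p = 0.146) and, as the mean of its 3 probe sets, was -0.45 (adjusted p = 0.103). CXADR, the coxsackievirus and adenovirus receptor, rose by 1.56 (ATRA), 1.70 (VPA) and 2.36 (combination). Its interaction of -0.91 (adjusted p = 0.0206) missed the threshold without DMSO replicate 1 or 2, VPA replicate 3 or combination replicate 3 (-0.94 to -0.77, adjusted p = 0.0637 to 0.125). FN1, which encodes fibronectin, rose by 2.37 (ATRA), 1.59 (VPA) and 3.34 (combination), and its interaction of -0.62 (adjusted p = 0.0486) missed the threshold without DMSO replicate 1 or 2, VPA replicate 1, 2 or 3, ATRA replicate 2 or 3 or combination replicate 1, 2 or 3 (-0.69 to -0.54, adjusted p = 0.0711 to 0.243). Of its 6 probe sets 4 were negative, and the mean of all 6 gave -0.30 (adjusted p = 0.183). The positive ones were dim, at mean log2 intensities of 4.764 and 4.065 against 9.085 for the one used. PTN, the growth factor pleiotrophin, rose by 1.19 (ATRA), 1.17 (VPA) and 1.61 (combination), with an interaction of -0.74 (adjusted p = 0.022) that missed it without DMSO replicate 1 or 2 or combination replicate 3 (-0.77 to -0.67, adjusted p = 0.0754 to 0.131). The mean of its 4 probe sets, of which 3 were negative, was -0.40 (adjusted p = 0.0536).

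**Figure D3:**
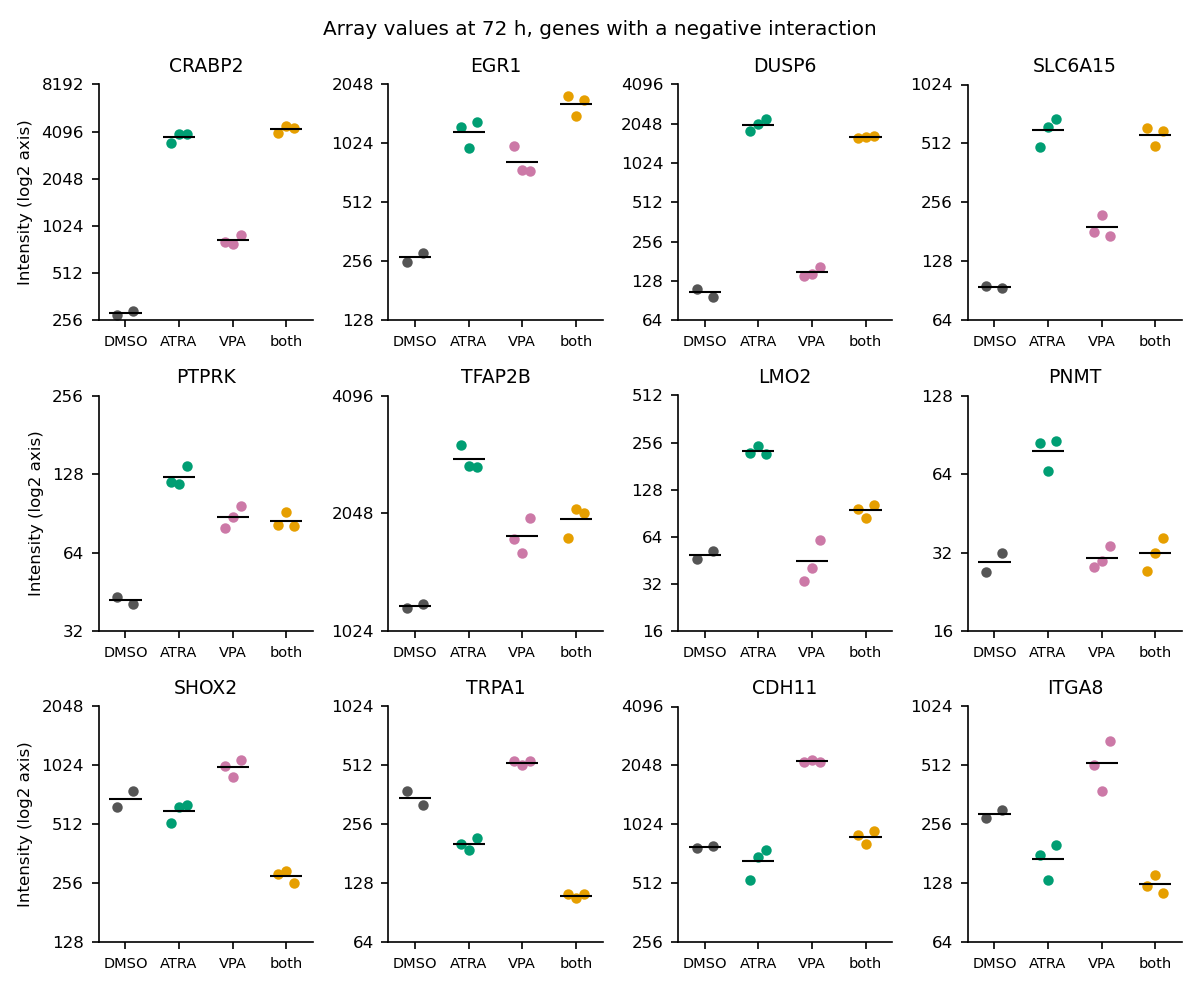
Points are single arrays at 72 h (DMSO 2, the others 3 each) and bars are group means of intensity, on a log2 axis of intensity that differs between panels; "both" is the combination. In CRABP2, EGR1 and SLC6A15 the DMSO arrays lie below all others, in TFAP2B, LMO2 and PNMT the ATRA arrays lie above all others, and in SHOX2, TRPA1 and ITGA8 the VPA arrays do.

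The second shape was a rise with ATRA that was smaller in the presence of VPA. PTPRK, a receptor tyrosine phosphatase, had intensities of 43.4 and 40.8 with DMSO, 119.7, 118 and 138 with ATRA, 79.5, 87.6 and 96.4 with VPA, and 81.5, 92.0 and 81.2 with both agents. ATRA stood above every other array, while the VPA and combination arrays overlapped. The interaction was -1.59 ± 0.18 (SE, adjusted p = 2.28e-06). TFAP2B, a transcription factor of sympathetic neuroblasts, had intensities of 1175 and 1204 with DMSO, 3058, 2712 and 2695 with ATRA, 1767, 1621 and 1994 with VPA, and 1774, 2098 and 2059 with both agents, with ATRA highest, DMSO lowest and an interaction of -1.10 ± 0.15 (SE, adjusted p = 2.51e-05). LMO2, a LIM-domain cofactor, had intensities of 46.4 and 51.9 with DMSO, 221, 244 and 216 with ATRA, 33.7, 40.7 and 61.4 with VPA, and 96.3, 85.3 and 103 with both agents. The combination lay between ATRA and the overlapping DMSO and VPA arrays, and the interaction of -1.09 ± 0.22 (SE, adjusted p = 0.00497) missed the threshold without DMSO replicate 1 (-1.01, adjusted p = 0.0552).

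PNMT, the enzyme that makes adrenaline from noradrenaline, had intensities of 27.0 and 31.9 with DMSO, 84.0, 65.9 and 85.6 with ATRA, 28.1, 29.8 and 33.9 with VPA, and 27.3, 31.98 and 36.5 with both agents. The DMSO, VPA and combination arrays overlapped near background and the ATRA arrays stood apart, with an interaction of -1.33 ± 0.22 (SE, adjusted p = 0.000531), or -0.82 with a pseudocount of 32. SCN9A, a voltage-gated sodium channel of sympathetic and sensory neurons, had mean intensities of 25.4, 49.8, 30.6 and 29.4 in DMSO, ATRA, VPA and the combination and an interaction of -0.99 (adjusted p = 0.00151), or -0.54 with that pseudocount. HEY1 had means of 2039, 5105, 2413 and 3067 in the same order. The combination minus ATRA alone was -0.55 (adjusted p = 0.00136) for PTPRK, -0.51 (adjusted p = 0.000338) for TFAP2B, -1.25 (adjusted p = 2.7e-07) for LMO2 and -1.27 (adjusted p = 2.28e-07) for PNMT.

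The third shape was a level that was highest with VPA alone and lower when ATRA was also present. SHOX2, a homeobox transcription factor, had intensities of 632 and 755 with DMSO, 521, 632 and 640.0 with ATRA, 1017, 899 and 1098 with VPA, and 285, 296 and 257 with both agents. VPA arrays lay above DMSO, ATRA overlapped DMSO, and the combination lay below every other array. The interaction was -1.63 ± 0.16 (SE, adjusted p = 1.28e-07); its 5 probe sets were all negative, from -1.74 to -0.11, with a mean of -0.84 (adjusted p = 8.62e-06). TRPA1, an irritant-gated cation channel of sensory neurons, had intensities of 378 and 323 with DMSO, 205, 191 and 218 with ATRA, 538, 512 and 539 with VPA, and 113, 107 and 113 with both agents, so that no groups overlapped. VPA raised it, ATRA lowered it, and the combination was lowest, with an interaction of -1.47 ± 0.17 (SE, adjusted p = 2e-06), or -0.83 (adjusted p = 0.000177) as the mean of its 2 probe sets. The one not used was dim, at a mean log2 intensity of 4.48 against 7.64.

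CDH11, a cadherin of mesenchymal cells, had intensities of 779 and 797 with DMSO, 532, 695 and 762 with ATRA, 2137, 2188 and 2141 with VPA, and 903, 813 and 945 with both agents. VPA alone raised it with no overlap, and the combination minus VPA was -1.28 (adjusted p = 7.53e-11). The interaction was -1.02 ± 0.16 (SE, adjusted p = 0.00022), and both of its probe sets gave about the same value. ITGA8, an integrin subunit, had intensities of 276 and 304 with DMSO, 179.8, 133 and 201 with ATRA, 517, 379 and 682 with VPA, and 125, 141 and 115 with both agents. Its interaction of -1.23 (adjusted p = 0.0139) missed the threshold without DMSO replicate 1 or 2 (-1.30 to -1.17, adjusted p = 0.0527 to 0.103). GUCY1A1, a subunit of soluble guanylate cyclase, had means of 179.6, 145, 213 and 73.5 in DMSO, ATRA, VPA and the combination. Its VPA change against DMSO, 0.24 (adjusted p = 0.611), did not pass. The interaction of GUCY1A1, -1.21 (adjusted p = 0.0137), missed the threshold without DMSO replicate 1 or 2 (-1.27 to -1.15, adjusted p = 0.0518 to 0.0977). Outside these shapes, CLSTN2, a postsynaptic calsyntenin, had a VPA change of -0.015, and its combination arrays, at 129, 161 and 189, lay below all others, and the interaction was -1.11 ± 0.21 (SE, adjusted p = 0.00238). FGFR2, a fibroblast growth factor receptor, had the third shape, with means of 73.4, 60.9, 149 and 54.5 in DMSO, ATRA, VPA and the combination. It was called at -1.17 (adjusted p = 0.0393) but missed the threshold without DMSO replicate 1 or 2, VPA replicate 1, 2 or 3, ATRA replicate 1 or 2 or combination replicate 3 (-1.25 to -0.96, adjusted p = 0.054 to 0.187). Its 7 probe sets gave a mean of -0.36.

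RAMP1, the subunit that makes the CGRP receptor with its partner, had a negative interaction where the ligand gene CALCB had a positive one. It rose by 1.54 (ATRA), 0.70 (VPA) and 1.23 (combination), and its interaction of -1.01 (adjusted p = 0.0232) missed the threshold without DMSO replicate 1 or 2, VPA replicate 3 or combination replicate 1 (-1.09 to -0.89, adjusted p = 0.0556 to 0.156). HTR1E, a serotonin receptor, had an interaction of -0.99 (adjusted p = 0.0167) and missed it without DMSO replicate 2 or VPA replicate 1 or 2 (-0.92 to -0.76, adjusted p = 0.0532 to 0.203).

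Pathways were described with 26 lists of 809 genes in all, of which 705 were measured and 43 called, beside the 1.92% called among all genes. By direction the share of all genes was 1.31% positive and 0.611% negative. Whether the counts of any list differ from these shares was not tested. After the further quantile normalization the list medians turned from positive to negative for HOX and TALE genes (-0.028), sympathetic identity (-0.049), neurite cytoskeleton (-0.062), matrix (-0.074), G2 and mitosis (-0.12), chromatin acetylation (-0.0023) and sterol synthesis (-0.070). By the same step the medians became -0.084 for the retinoid response, 0.068 for the integrated stress response, -0.165 for ERK feedback, -0.22 for DNA replication and -0.020 for the BMP, TGF-beta, Notch and Wnt readouts. Among 23 measured genes of the retinoid response, 2 had a positive and 2 a negative interaction, with a median of -0.014. RARB had intensities of 17.8 and 19.1 with DMSO, 35.5, 35.0 and 28.9 with ATRA, 18.4, 17.6 and 17.2 with VPA, and 72.1, 69.7 and 66.0 with both agents. Its ATRA arrays lay above DMSO and VPA and its combination arrays above ATRA, at an interaction of 1.10 ± 0.15 (SE, adjusted p = 4.97e-05), which was 0.66 with a pseudocount of 32. Of its 5 probe sets 2 were positive, and their mean gave 0.18 (adjusted p = 0.337). All were dim, with a mean log2 intensity of 4.56 for the one used and 4.12 to 4.49 for the others. RARA, the alpha receptor, had an interaction of 0.72 (adjusted p = 0.00495), with changes of 0.45 (ATRA), -0.66 (VPA) and 0.51 (combination), and the mean of its 3 probe sets gave 0.35 (adjusted p = 0.212). PLAT, tissue plasminogen activator, was negative together with CRABP2, at -0.70 (adjusted p = 0.0129).

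The enzymes of the same list that break retinoic acid down missed the threshold. CYP26A1 had intensities of 22.2 and 21.9 with DMSO, 513, 579 and 771 with ATRA, 17.8, 19.3 and 21.8 with VPA, and 763, 726 and 759 with both agents, so that the ATRA and combination arrays overlapped. Its interaction was 0.45 (adjusted p = 0.366), with a 95% interval of -0.074 to 0.98. CYP26B1, the sister enzyme, had ATRA arrays at 612, 727 and 463 and combination arrays at 451, 420.3 and 373 from a background of 16.0 and 20.2. Its interaction was -0.45 (adjusted p = 0.261), with an interval of -0.87 to -0.026. DHRS3, which reduces retinal, stood at 0.31 (adjusted p = 0.601), with an interval of -0.27 to 0.88. The receptor tyrosine kinase RET stood at -0.11 (adjusted p = 0.833), with an interval of -0.56 to 0.33, and HOXD4 at 0.55 (adjusted p = 0.124), with an interval of 0.17 to 0.94. HOXD4 passed in 1 of 22 alternatives, the 3'/5' covariate in the fit of all groups (0.70, adjusted p = 0.0336). RET rose by 1.14 with ATRA and 1.23 with the combination. None of the 23 measured HOX and TALE homeobox genes was called, beside 1.92% of all genes.

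Genes of sympathetic identity and catecholamine synthesis held 3 positive and 3 negative interactions among 21 measured, beside 1.31% and 0.611% of all genes. Their median was 0.11. TBX2, a T-box factor of the noradrenergic state, had intensities of 1453 and 1465 with DMSO, 1601, 1692 and 1897 with ATRA, 937, 939 and 1244 with VPA, and 2545, 2633 and 2868 with both agents. VPA alone lay below DMSO, the combination above all others, and the interaction was 1.13 ± 0.18 (SE, adjusted p = 0.000328), positive in all 3 probe sets. HAND1, a basic helix-loop-helix factor, was positive at 0.70 (adjusted p = 0.0133). So was SLC18A2, the vesicular monoamine transporter, at 0.91 (adjusted p = 0.026) with changes of -1.95 (ATRA), -0.76 (VPA) and -1.80 (combination). ISL1, a LIM homeobox factor, was negative at -0.69 (adjusted p = 0.00109), as were TFAP2B and PNMT. TH, the rate-limiting enzyme of catecholamine synthesis, had combination arrays at 107, 98.5 and 87.5 below all others, and its interaction was -0.84 (adjusted p = 0.209), with an interval of -1.55 to -0.13. TH passed in 2 of 22 alternatives, among them the fit of the 11 arrays alone (adjusted p = 0.0263). DBH stood at 0.11 (adjusted p = 0.754) and MYCN at 0.0026 (adjusted p = 0.993), with an interval of -0.21 to 0.22.

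Neuropeptide and secretory granule genes had 3 positive and no negative interactions among 23, beside 1.31% and 0.611% of all genes. Their median was 0.146. Besides SCGN and CALCB the third was SCG2, secretogranin II, with changes of 0.30 (ATRA), -0.085 (VPA) and 0.64 (combination) and an interaction of 0.43 (adjusted p = 0.0316), which missed the threshold without DMSO replicate 1 or 2, VPA replicate 1 or 3, ATRA replicate 1 or 2 or combination replicate 2 or 3 (0.38 to 0.47, adjusted p = 0.0588 to 0.194). GAL, the neuropeptide galanin, had intensities of 551 and 584 with DMSO, 3399, 3457 and 3477 with ATRA, 438, 453 and 423 with VPA, and 2969, 2889 and 3149 with both agents and an interaction at 72 h of 0.17 (adjusted p = 0.466), which was -0.12 as the mean of its probe sets. Of 31 neurite cytoskeleton genes 1 was called, beside 1.92% of all genes. It was GAP43, a growth-cone protein, at -0.38 (adjusted p = 0.0232). GAP43 missed the threshold without DMSO replicate 1 or 2, VPA replicate 2, ATRA replicate 1 or combination replicate 2 (-0.40 to -0.35, adjusted p = 0.053 to 0.151). It also missed as the mean of its 3 probe sets, at -0.29 (adjusted p = 0.238). DCX, a microtubule protein of migrating neurons, had ATRA arrays at 1434, 1372 and 1596 above combination arrays at 948, 971 and 967, from DMSO at 257 and 243, and stood at -0.63 (adjusted p = 0.0654). NEFM, a neurofilament, stood at -0.21 (adjusted p = 0.23) and STMN4, a stathmin, at 0.18 (adjusted p = 0.751).

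Among 32 synapse and ion channel genes SNAP25 was positive and SCN9A negative, beside 1.31% and 0.611% of all genes. SNAP25, a vesicle fusion protein, stood at 0.49 (adjusted p = 0.0494). It missed the threshold without DMSO replicate 1 or 2, VPA replicate 2 or 3, ATRA replicate 1 or 2 or combination replicate 1, 2 or 3 (0.41 to 0.52, adjusted p = 0.0513 to 0.196). It also missed as the mean of both probe sets, at 0.40 (adjusted p = 0.362). Among 23 neurotrophic receptors and ligands 2 were negative, PTN and BDNF, beside 0.611% of all genes. BDNF lay near background, highest with VPA at 26.6, 29.5 and 41.8, and its interaction of -0.80 (adjusted p = 0.016) missed the threshold without DMSO replicate 1 (-0.67, adjusted p = 0.173) and was -0.37 with a pseudocount of 32.

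Signalling downstream of ERK held 2 positive and 3 negative calls among 32 genes, beside 1.31% and 0.611% of all genes. The median of the 32 was -0.061. DUSP4, a nuclear ERK phosphatase, had intensities of 583 and 632 with DMSO, 1220.0, 979.8 and 1029 with ATRA, 536, 474 and 608 with VPA, and 1786, 1737 and 1756 with both agents, with the combination above all others and an interaction of 0.89 ± 0.14 (SE, adjusted p = 0.000346), positive in both probe sets. DUSP6, of the same family, was negative as given above, so both phosphatases rose with ATRA but differed in sign of the interaction. ETV5, an ERK-induced ETS factor, was positive at 0.78 (adjusted p = 0.0281), and IER5, an immediate early gene, was negative at -0.60 (adjusted p = 0.0167) together with EGR1.

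Among 45 matrix and substrate-adherent genes 3 were positive and 1 negative, beside 1.31% and 0.611% of all genes, with a median of 0.013. COL6A3, a collagen VI chain, had mean intensities of 45.0, 57.2, 51.4 and 124 in DMSO, ATRA, VPA and the combination and an interaction of 0.92 (adjusted p = 0.00223). SPARC stood at 0.57 (adjusted p = 0.0104), LOXL1 was the third positive gene, and FN1 the negative one. The summed intensity of 5 fibroblast and mesenchymal markers moved with the groups: it was 1363 to 1366 in DMSO, 1131 to 1171 in ATRA, 2285 to 2476 in VPA and 1755 to 1778 in the combination, and 3 of the 5 had a mean above 100. DCN, which encodes decorin and was the brightest of them in DMSO, had means of 1033.2, 847.7, 1021.8 and 922.0 in DMSO, ATRA, VPA and the combination, so that it was not higher with VPA. Most of the shift of the sum with VPA lay in LUM, which encodes lumican, with means of 200.8, 146.2, 1108 and 610.6 in that order, while COL1A2 stayed near background at 24.03, 30.64, 23.71 and 22.97. In bulk RNA more cells of a type and more RNA per cell cannot be told apart, and the part of these markers in the matrix genes and CDH11 was not tested.

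The calls among the targets of VPA and the genes reported to respond to such inhibitors stand beside the 1.92% called among all genes. Whether their shares differ from it was not tested. Of 28 histone deacetylases, acetyltransferases and readers 1 was called, HDAC5, a class IIa deacetylase, with intensities of 274 and 294 with DMSO, 177, 152 and 136 with ATRA, 141, 184 and 203 with VPA, and 219, 232 and 267 with both agents. Both agents lowered it and the combination lay between them and DMSO, at an interaction of 1.33 ± 0.24 (SE, adjusted p = 0.00171). HDAC1 had ATRA arrays at 654, 680.3 and 771 below all others and combination arrays at 998, 1073 and 1205, and stood just outside the threshold at 0.57 (adjusted p = 0.0533). It passed in 9 of 22 alternatives, among them a pseudocount of 32 (0.55, adjusted p = 0.0372). After the further quantile normalization it did not (0.38, adjusted p = 0.154). HDAC9 stood at -0.39 (adjusted p = 0.22). Of 28 genes reported to respond to deacetylase inhibitors 2 were negative, CXADR and KLF2. KLF2, at -0.42 (adjusted p = 0.0385), missed the threshold without DMSO replicate 1 or 2, VPA replicate 1, 2 or 3, ATRA replicate 2 or 3 or combination replicate 2 or 3 (-0.49 to -0.35, adjusted p = 0.0569 to 0.238).

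Of 34 genes of the integrated stress and amino acid response 2 were positive, GDF15 and SLC7A5, beside 1.31% of all genes. The median of the 34 was 0.212 (0.068 after the further quantile normalization). SLC7A5, a large neutral amino acid transporter, had changes of -0.37 (ATRA), -0.51 (VPA) and -0.27 (combination) and an interaction of 0.62 (adjusted p = 0.0404), which missed the threshold without DMSO replicate 1 or 2, VPA replicate 1 or 2, ATRA replicate 1 or 2 or combination replicate 2 or 3 (0.56 to 0.64, adjusted p = 0.076 to 0.173). Among 29 apoptosis genes 1 was positive, the survival factor BCL2, beside 1.31% of all genes. BCL2 had intensities of 202 and 235 with DMSO, 526, 415 and 579 with ATRA, 202, 212 and 170.1 with VPA, and 814, 808 and 879.9 with both agents, with the combination arrays above all others. Its interaction of 0.90 ± 0.18 (SE, adjusted p = 0.00602) missed the threshold without DMSO replicate 2 (0.79, adjusted p = 0.0845), and 2 of its 4 probe sets were positive, with a mean of 0.30 (adjusted p = 0.229). The probe set used had a mean log2 intensity of 8.17 and the others 4.65 to 4.74.

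Genes of the cell cycle held no called interaction, beside the 1.92% called among all genes. At that share a list of such a size can hold 0 calls, so this is not read as a result about its members. Over 40 DNA replication genes the median change was -0.62 for ATRA, -0.197 for VPA and -0.898 for the combination, and the median interaction was -0.077. Over 42 genes of G2 and mitosis these medians were -0.68, -0.228, -0.81 and 0.040. MKI67, a proliferation marker, had intensities of 1270.1 and 1353 with DMSO, 797, 735 and 746 with ATRA, 1112, 1092 and 1121 with VPA, and 583, 565 and 552 with both agents. Its combination arrays were the lowest, and its interaction of -0.18 (adjusted p = 0.516), with an interval of -0.45 to 0.096, missed the threshold. Its other 3 probe sets were positive, and the mean of all 4 was 0.073. CDKN1A, the inhibitor p21, stood at 0.47 (adjusted p = 0.475), with an interval of -0.20 to 1.15. Beside the same share, no member was called among 25 CDK inhibitors and growth arrest genes, 30 of the MYC network and ribosome biogenesis, 25 histone genes, 26 of sterol and fatty acid synthesis, 32 MHC class I and interferon-inducible genes, 28 metallothioneins and redox genes and 41 of the mitochondrial respiratory chain. The respiratory chain had a median of 0.171 in the direction of the brighter genes, and 0.087 after the further quantile normalization.

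**Figure D4:**
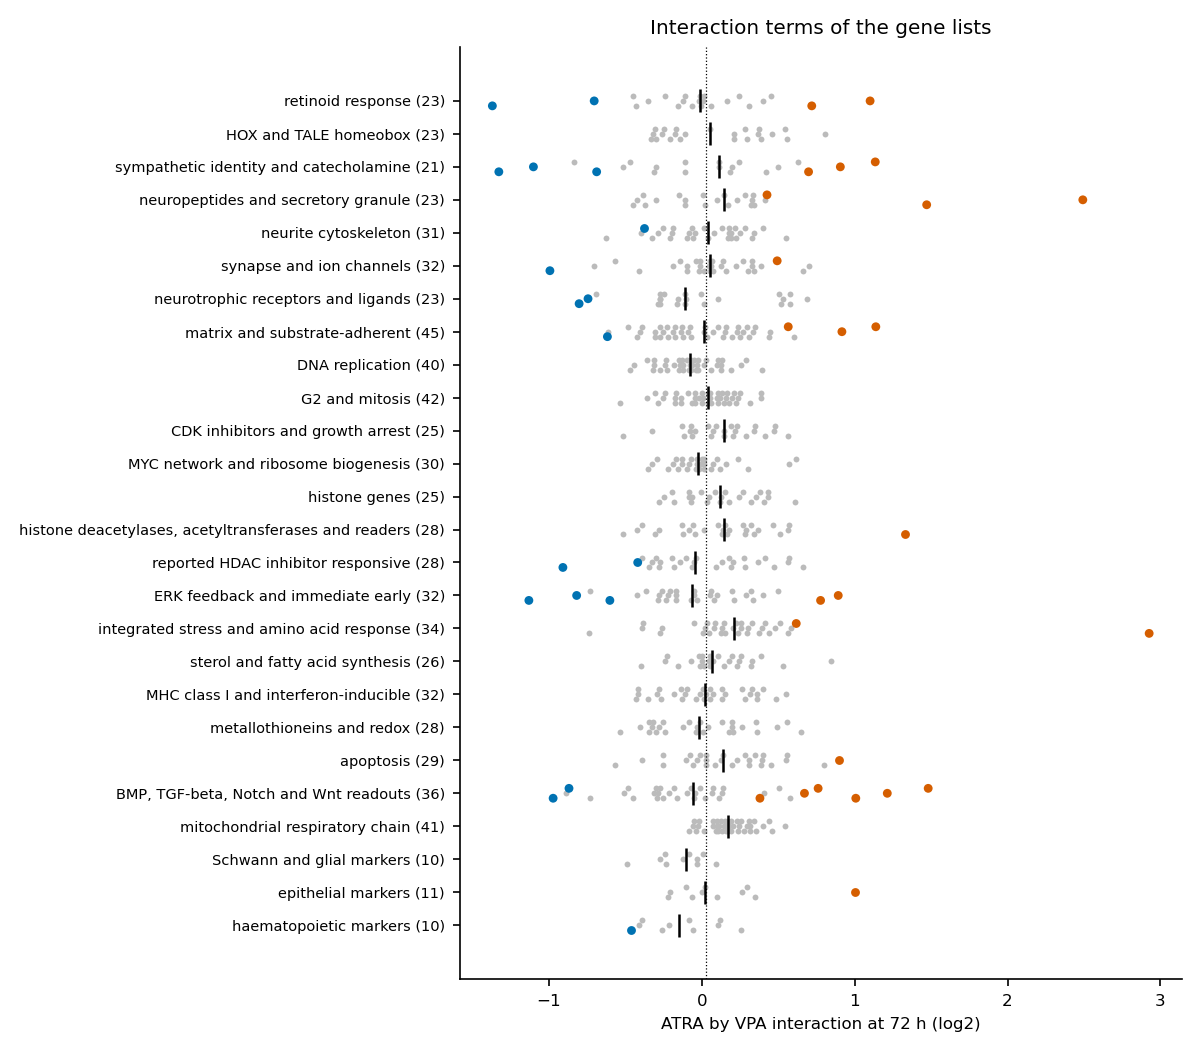
Each point is a measured member of a list, with its interaction at 72 h (log2) on the x axis and the number of members in brackets; orange and blue points passed the threshold in the positive and the negative direction, grey points did not. Black bars are list medians and the dotted line is the median of all genes, 0.030.

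The labelled cell type, a neuroblastoma line of sympathetic origin, was checked against marker genes. Of 9 measured sympathetic markers 8 had a mean above 100, with HAND2 at 24.19 to 34.59 the exception, and their summed intensity ran from 23486 to 29738. Of 5 Schwann and glial markers, 4 epithelial markers and 3 haematopoietic markers none had a mean above 100. Beside the 1.92% called among all genes, the wider lists held 0 calls among 10 Schwann and glial genes, KRT18 among 11 epithelial genes and PTPRC among 10 haematopoietic genes. PTPRC, at -0.46 (adjusted p = 0.0429), lay near background on every array, was -0.19 with a pseudocount of 32 and missed the threshold without DMSO replicate 1 or 2, VPA replicate 1 or 2, ATRA replicate 1 or combination replicate 2 or 3 (-0.49 to -0.41, adjusted p = 0.0553 to 0.196).

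Fewer interactions were called at the earlier times. In the same layout at 6 h, limma called 0 genes (0%), with 282 at an unadjusted p under 0.05, and at 24 h it called 88 (0.737%), 9 positive and 79 negative. The 24 h count was 56 without DMSO replicate 1 of that time, an array with a median intensity of 43.63. Over all genes the median interaction at 24 h was -0.068, and -0.013 without that array. The difference between the 72 h and the 24 h interaction was itself tested and passed for 38 genes (0.318%), 36 of them higher at 72 h. Its median over all genes was 0.116, so genes in general leaned the same way, and the part of this shift in the split was not tested. Without DMSO replicate 1 of 24 h it passed for 29 genes, 26 of them higher at 72 h. The count was 12 without DMSO replicate 1, 21 without DMSO replicate 2 and 21 without combination replicate 3 of 72 h. The difference from 6 h passed for 43 genes (0.36%), and for 66 without DMSO replicate 1 of 24 h.

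Among the genes described, SCGN went from 0.091 at 6 h and 0.040 at 24 h to 2.49 at 72 h, and GDF15 from -0.072 and 1.04 to 2.93. SSTR2 and GAL changed in sign of their estimate, from -0.71 to 1.21 and from -1.76 to 0.17 between 24 h and 72 h, and both differences passed. Some negative genes had negative estimates at 24 h too: CRABP2 stood at -1.78, PTPRK at -1.66, TRPA1 at -1.33, EGR1 at -1.41 and SLC6A15 at -1.38, and none of these 5 differed past the threshold between 24 h and 72 h. PTGIR likewise stood at 1.57 at 24 h.

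**Figure D5:**
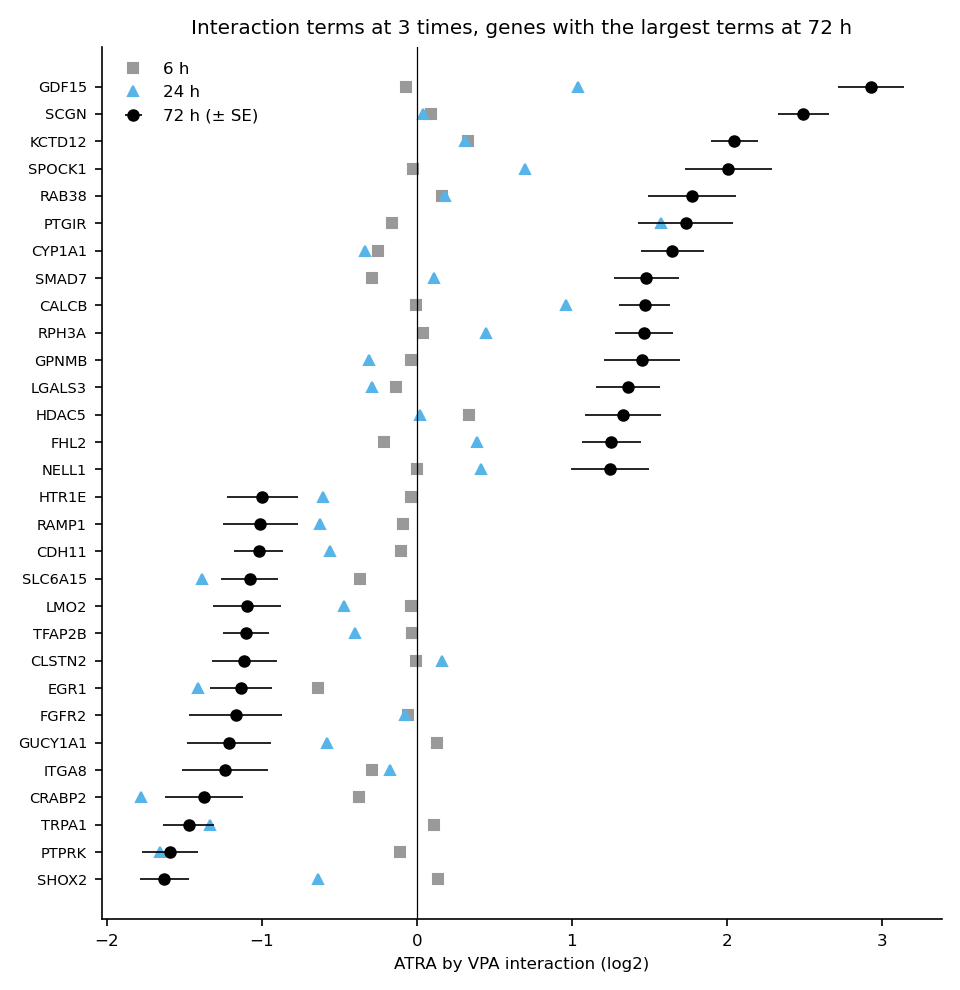
The interaction (log2) on the x axis at 6 h (squares), 24 h (triangles) and 72 h (circles with SE) for the 15 largest positive and 15 largest negative interactions at 72 h among genes with a mean of at least 100 in some group. At 6 h the 30 genes lie between -0.64 and 0.33, and at 24 h PTPRK, TRPA1 and PTGIR lie closest to their values at 72 h.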

How the data were processed

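Expression was measured on 35 Affymetrix human arrays. What was deposited is a linear intensity per probe set, which the authors made with RMA, per the submitters' processing notes (version not given in the sources used here). All tests used log2(intensity + 1), so a fold understates the change of dim genes. A single gene symbol belonged to 19415 of 22930 probe sets (125 named several genes, 3292 none, 98 were controls), and the brightest of each gene gave 11940 genes, of which 11874 matched RefSeq. limma 3.58.1 in R 4.3.3 fitted all 12 group means together (lmFit, eBayes; 23 residual and 5.5 prior degrees of freedom). Adjustment was by Benjamini-Hochberg over all genes at 0.05. Errors are standard errors from this fit and intervals are 95%. The procedure was tested on simulated data.

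Named were the 15 largest called interactions each way with a mean of at least 100 in a group at 72 h, the 3 largest called members of each list, 22 genes always taken up, and the 5 largest differences between 72 h and 24 h each way that were called with such a mean. Other called list members are named where a list's calls are given in full. The members, lists and rules were chosen with earlier results of these data known. Alternatives changed the block, arrays, filter, probe sets, pseudocount, prior, weights, scaling and the 3'/5' covariate.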

Additional observations from a re-analysis of the deposited data

Results flagged for a closer look

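The flags below all come from one test, that of a difference in the interaction between times, for genes the naming rule took up. None was set by an array that stood out within its group, since the groups hold 2 or 3 arrays. Between 72 h and 24 h the interaction differed past the threshold for 16 genes, all values being log2 differences. The median difference over all genes was 0.116. It was higher at 72 h by 2.45 for SCGN, 1.98 for CYP1A1, 1.93 for GAL, 1.92 for SSTR2, 1.89 for GDF15, 1.76 for GPNMB, 1.74 for KCTD12 and 1.65 for LGALS3. Smaller positive differences were 1.37 for SMAD7, 1.12 for TBX2, 1.10 for DUSP4, 0.98 for SLC7A5, 0.86 for SMAD6 and 0.79 for SCG2. The difference was -1.27 for CLSTN2 and -0.99 for SHOX2. DMSO replicate 1 at 24 h had a median intensity of 43.63, the lowest of all arrays, and enters each of these. Without it, SMAD7 at 1.25 (adjusted p = 0.0527), TBX2 at 1.01 (adjusted p = 0.0755) and SLC7A5 at 0.90 (adjusted p = 0.0885) missed the threshold and the other 13 passed, with SCGN at 2.31 (adjusted p = 2.21e-08) and GAL at 1.83 (adjusted p = 9.47e-09).

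Between 72 h and 6 h the interaction differed for 22 genes. The positive differences were 3.00 for GDF15, 2.40 for SCGN, 2.03 for SPOCK1, 1.90 for CYP1A1, 1.89 for PTGIR, 1.77 for SMAD7, 1.71 for KCTD12, 1.5 for LGALS3 and 1.49 for GPNMB. They were 1.47 for CALCB, 1.47 for FHL2, 1.42 for RPH3A, 1.40 for SSTR2, 1.15 for RARB, 1.15 for SMAD6, 1.09 for TBX2 and 1.06 for DUSP4. The negative differences were -1.77 for SHOX2, -1.61 for PNMT, -1.58 for TRPA1, -1.48 for PTPRK and -1.07 for TFAP2B. No array of this layout at 6 h was left out in turn.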

How the results depend on the processing

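The interaction counts at 72 h depended on the processing more than the signs did. Against 229 calls (156 positive, 73 negative), array weights gave 752 (574 and 178), a pseudocount of 32 gave 353 (260 positive), unlogged intensity gave 413 (306 positive), and a further quantile normalization gave 114 negative calls. The 3'/5' ratio as a covariate in the 11 arrays alone, chosen after seeing the data, gave 21 (15 and 6). Against 38 calls for 72 h minus 24 h, array weights gave 233, a pseudocount of 32 gave 97, leaving out the dimmest genes gave 74 and the 3'/5' covariate gave 58. Array weights gave 151 against 43 for 72 h minus 6 h. Leaving out single arrays of 72 h gave 95 to 366 calls (64 to 262 positive, 31 to 104 negative), with 12 to 56 for the difference from 24 h and 29 to 56 for that from 6 h. Without DMSO replicate 1 of 24 h these were 482 (366 and 116), 29 and 66. The cause of these moves was not tested. Of 54 called genes that the naming rule took up, 40 lost the call at least once and 0 reversed, and 35 of 52 counts by list and direction moved at least once. Of the named genes not called, HDAC1, DCX, TH and HOXD4 passed in 9, 6, 2 and 1 of 22 alternatives.

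Replicate numbers did not clearly pair the arrays at 72 h. Over 15 pairs of the same number the correlation of deviations from the group mean ran from -0.042 to 0.206, with 1 above 0.1. At 24 h it ran from -0.296 to 0.348, with 7 of 18 pairs above 0.1 and a mean of -0.0034. At 6 h it ran from -0.228 to 0.187, with 3 of 18 above 0.1 and a mean of -0.044. With a replicate block 284 genes were called (208 positive, 76 negative). Precision is limited by signal over background and by 2 arrays with DMSO: 40 of the 229 called genes had no group mean of 100.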
